A study of Homo sapiens with 4 samples.

Results

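Lysosomal genes were measured in 2 HER2-positive breast cancer cell lines, SkBr3 and BT474, and in 1 lapatinib-resistant clone of each. A list of 33 genes was drawn up from the known parts of the lysosome, and 32 of them had at least 1 probe that could be named through its RefSeq accession, among 16422 genes named in this way on the whole array. The cathepsin H gene was the one without a matched probe and is not analysed here. Lapatinib blocks the kinase activity of EGFR and HER2. The parental cells were labelled as vehicle treated, whereas the clones had been selected in stepwise higher lapatinib, reaching 1 µM, and were labelled as lapatinib treated, so that the presence of the drug and the resistant state cannot be told apart. All cells were grown in DMEM/F12. Each resistant sample was 1 clone of its line. The sample labels number the SkBr3 clone 3 and the BT474 clone 6, the study numbers them the other way round, and they are called the SkBr3 and the BT474 resistant clone here. Each of the 4 groups was measured on 1 single-color array, and therefore no difference between groups has a replicate check.

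Lysosomes are acidic organelles in which proteins, glycans and lipids delivered by endocytosis and autophagy are broken down. A vacuolar proton pump, the V-ATPase, acidifies the lumen, soluble hydrolases do the digestion, and heavily glycosylated membrane proteins and transporters line the organelle and release its products and ions. Many genes of these proteins are targets of the transcription factor TFEB and its relatives TFE3 and MITF, which bind an E-box-containing element near the transcription start, and the kinase complex mTORC1 on the lysosomal surface restrains TFEB.

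Values are given as the relative signal, which is the background-subtracted signal of a probe divided by the 75th percentile of all probes on the same array. That percentile was 1114.8 in parental SkBr3 cells, 2073.8 in the SkBr3 resistant clone, 1158.4 in parental BT474 cells and 1680.9 in the BT474 resistant clone. A gene was called higher or lower when its relative signal differed at least 2-fold, and log2 fold changes are those of the relative signal. The array software's own error of each signal gives a log2 fold change an error of 0.20 to 0.27 in lysosomal genes measured on both arrays, and this covers 1 array's measurement only and not the spread between cultures. All 43 probes of the 32 genes passed the filter on dim probes, which 63.2% of all probes passed, and 42 of them were well above background on all 4 arrays. The exception was the probe of CTSZ in the SkBr3 resistant clone. One slide carried 3 of the arrays and another slide carried that of the SkBr3 resistant clone, so that for SkBr3 the slide and the resistance cannot be told apart, and the BT474 comparison is the one made within a slide.

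Most lysosomal genes, like most of all genes, stayed within 1.5-fold of their parental level in each clone. In the SkBr3 resistant clone, 1 of 32 was higher (MCOLN1) and 4 were lower (CTSZ, CTSD, TPP1 and GUSB), which is 15.6% changed, while among all 12159 genes with a kept probe 14.1% were higher, 14.4% lower and 28.6% changed. In the BT474 resistant clone, 3 were higher (CTSC, CTSK and CTSD) and 1 was lower (ARSB), which is 12.5% changed, while 9.20% of all genes were higher, 5.40% lower and 14.6% changed. No lysosomal gene was higher in both clones, against 3.07% of all genes, and none was lower in both, against 1.45%. CTSD was lower in one clone and higher in the other, against 3.58% of all genes with opposite 2-fold changes. In either clone 8 of the 32 had changed, against 35.1% of all genes. The median log2 fold change of the 32 genes was -0.12 in SkBr3, where that of all genes was -0.06, and 0.04 in BT474, where that of all genes was -0.09. Within 1.5-fold of the parental level were 20 genes in SkBr3, or 62.5% against 52.0% of all genes, and 24 genes in BT474, or 75% against 68.0%. The log2 fold changes had the same sign in both clones for 18 of the 32 genes, or 56.2%, against 48.7% of all genes.

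**Figure D1:**
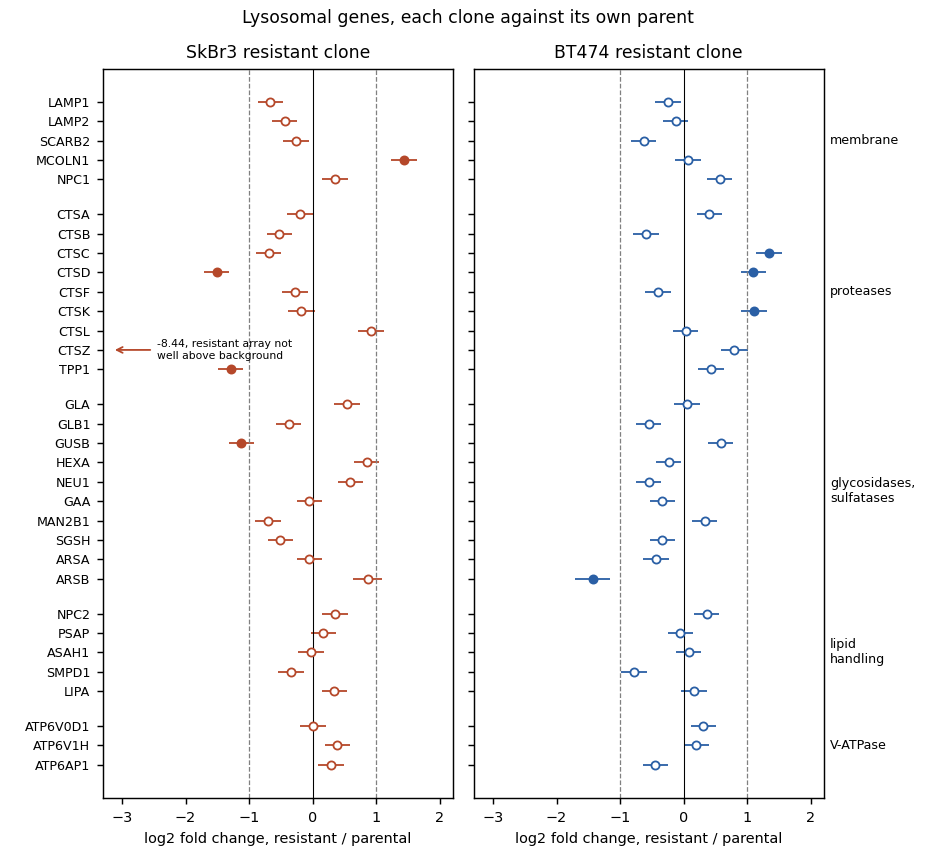
Log2 fold change of each of the 32 lysosomal genes in the SkBr3 clone (left) and the BT474 clone (right) against its own parental cells, with the genes on the vertical axis grouped by role. Bars are the software's error of the 2 signals, filled points lie past the dashed lines at 2-fold, and the arrow marks CTSZ, whose signal in the SkBr3 clone was not well above background; 5 genes lie past 2-fold on the left and 4 on the right.

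**Figure D2:**
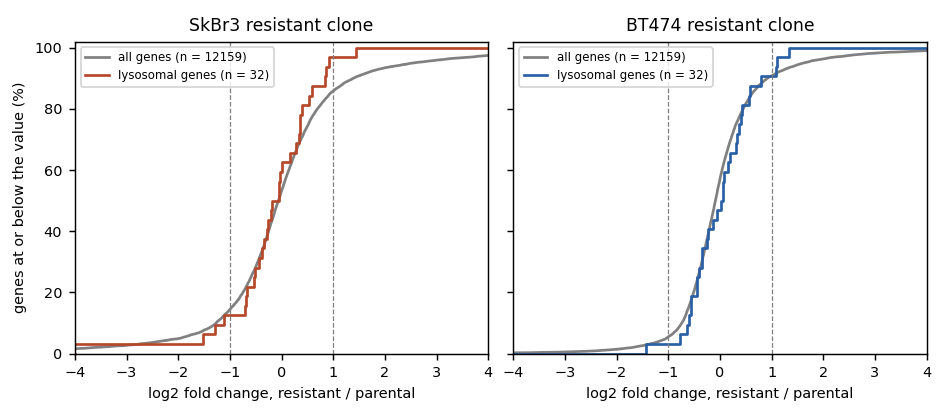
Share of genes in percent (vertical axis) with a log2 fold change at or below the value on the horizontal axis, for the 32 lysosomal genes (colored steps) and all 12159 genes with a kept probe (grey), in the SkBr3 clone (left) and the BT474 clone (right). The medians lie close together, at -0.12 and -0.06 in SkBr3 and 0.04 and -0.09 in BT474, and the axis stops short of CTSZ in SkBr3.

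The letters of the TFEB element were looked up in RefSeq promoter windows of GRCh38.p14, from 250 bases before to 50 bases after a start, which were given for 24 of the 33 genes. The E-box core CACGTG was in the windows of 9 genes (LAMP1, MCOLN1, CTSA, CTSD, CTSF, NEU1, GAA, ARSB and ATP6V0D1), or 37.5%, against 8.77% of all 27305 genes with a window. The longer TCACGTGA was in 5 (LAMP1, MCOLN1, CTSA, GAA and ATP6V0D1), or 20.8%, against 1.18%, and the same letters with G before and C after them were in 2 (MCOLN1 and GAA), or 8.33%, against 0.421%. The 27305 genes include many without a kept probe. Of the 9850 genes with a window and a kept probe, 1248 had CACGTG, 224 had TCACGTGA and 87 had the longest motif, which are larger shares. The 3 motifs are nested and each reads the same on both strands, so both strands were searched at once. The stretches upstream of the start that hold the copies are shown for the 5 genes with the longer motif and for CTSD, which had opposite changes in the 2 clones. They are written 5′ to 3′ on the strand of the gene, and capitals mark the motif at its longest match.
MCOLN1: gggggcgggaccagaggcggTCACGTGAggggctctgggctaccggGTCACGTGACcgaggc
GAA: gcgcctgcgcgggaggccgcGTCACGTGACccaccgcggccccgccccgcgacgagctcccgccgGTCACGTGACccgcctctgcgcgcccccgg
CTSA: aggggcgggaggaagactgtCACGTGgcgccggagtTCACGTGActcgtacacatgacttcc
LAMP1: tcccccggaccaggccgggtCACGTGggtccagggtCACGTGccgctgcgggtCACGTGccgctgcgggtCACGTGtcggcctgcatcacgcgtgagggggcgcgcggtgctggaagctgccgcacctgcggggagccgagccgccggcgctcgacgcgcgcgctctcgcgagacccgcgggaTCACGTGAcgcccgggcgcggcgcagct
ATP6V0D1: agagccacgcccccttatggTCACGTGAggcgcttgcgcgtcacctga
CTSD: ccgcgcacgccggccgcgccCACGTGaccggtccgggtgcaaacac
The MCOLN1 stretch lies at chr19:7522562-7522623 on the plus strand, GAA at chr17:80101483-80101577 (plus), CTSA at chr20:45891273-45891334 (plus), LAMP1 at chr13:113297027-113297237 (plus), ATP6V0D1 at chr16:67481190-67481237 (minus) and CTSD at chr11:1763949-1763994 (minus). MCOLN1, GAA and LAMP1 each hold TCACGTGA 2 times in the window. LAMP1 holds CACGTG 6 times, of which 5 are in the printed stretch, since the last copy, a TCACGTGA, spans the start and lies beyond it. A match is a description of these letters and not of binding.

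The fold changes of genes with these letters were set beside those of all measured genes with a window. Of the 5 lysosomal genes with TCACGTGA, 1 (MCOLN1) was higher in the SkBr3 clone and none was higher or lower in the BT474 clone, with median log2 fold changes of -0.06 and 0.07. Among all 224 measured genes with TCACGTGA in a window, 26 were higher and 21 lower in SkBr3 and 13 were higher and 4 lower in BT474, with medians of 0.00 and -0.04. These are 11.6% and 9.38% in SkBr3 and 5.8% and 1.79% in BT474, against 13.6%, 13.8%, 8.5% and 5.07% of the 9850 measured genes with any window. MCOLN1 and GAA, the pair with the longest motif, had log2 fold changes of 1.43 and -0.06 in SkBr3 and of 0.07 and -0.34 in BT474.

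Of the 5 membrane proteins, only MCOLN1 passed 2-fold, where 28.6% of all genes did so in SkBr3 and 14.6% in BT474. MCOLN1 encodes mucolipin-1, the cation channel that releases calcium from the lysosome, and its relative signal was 0.351 in parental SkBr3 cells, 0.946 in the SkBr3 clone, 0.161 in parental BT474 cells and 0.169 in the BT474 clone. The SkBr3 clone stood above the other 3 samples and was 2.70-fold higher than its parent, and the 2 BT474 samples nearly coincided. LAMP1, the major structural glycoprotein of the lysosomal membrane, had relative signals of 120.0 and 75.7 in parental and resistant SkBr3 cells and of 89.4 and 75.4 in the corresponding BT474 cells. Its log2 fold changes were -0.67 and -0.25, and a dimmer probe of LAMP1 gave 0.16 and -0.40. LAMP2, the second such glycoprotein, had log2 fold changes of -0.44 and -0.13 with its brighter probe and of 0.41 and 0.16 with a probe named for another transcript of the gene. The 2 probes of LAMP2 thus differed in sign in both clones, all within 2-fold. SCARB2, which carries glucocerebrosidase to the lysosome, had -0.27 and -0.63. NPC1, which exports cholesterol from the lysosome, had 0.35 and 0.57. With the probe used for each gene, NPC1 and MCOLN1 were the membrane genes with positive values in both clones.

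Of the 9 proteases, 3 were lower and none was higher in SkBr3, with a median of -0.53, where 14.4% of all genes were lower and 14.1% higher. In BT474 3 were higher and none was lower, with a median of 0.43, where 9.20% of all genes were higher and 5.40% lower, and with the arrays scaled by their medians only CTSC of these 3 passed 2-fold. CTSD, the main aspartic protease of the lysosome, had relative signals of 6.74 in parental SkBr3 cells and 2.36 in the clone, and of 1.01 in parental BT474 cells and 2.16 in the clone. It was 2.85-fold lower in the SkBr3 clone and 2.13-fold higher in the BT474 clone, so that the parental lines held the highest and the lowest value and the clones lay between them. CTSC, the dipeptidyl peptidase that activates serine proteases of immune cells, had 1.64 and 1.01 in parental and resistant SkBr3 cells and 0.375 and 0.946 in BT474 cells. The BT474 clone was 2.53-fold higher than its parent, and the log2 fold change in SkBr3 was -0.70. Its second probe gave 1.92 in BT474 and -0.62 in SkBr3.

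CTSK, a collagen-degrading cysteine protease best known from osteoclasts, had relative signals of 0.186 and 0.165 in SkBr3 and of 0.177 and 0.381 in BT474. Only the BT474 clone stood apart from the other 3 samples, at 2.15 times its parent. The calls of CTSK and CTSD in BT474 depended on the scaling, since with the arrays scaled by their medians their log2 fold changes were 0.88 and 0.89, and CTSK was also short of 2-fold under quantile normalization, with and without normexp. The median of all genes in BT474 was itself -0.29 with that scaling. The osteoclast markers ACP5, CALCR and OSCAR were well above background in both BT474 samples and DCSTAMP in neither, and the summed relative signal of the 4 was 0.598 in parental BT474 cells and 1.01 in the clone. CALCR went from 0.186 to 0.772, while OSCAR went from 0.39 to 0.21. The part of such markers in the CTSK value was not tested.

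CTSZ, a cysteine carboxypeptidase, had the largest change of the 32 genes in either clone. Its relative signal was 1.03 in parental SkBr3 cells and 0.0695 and 0.121 in parental and resistant BT474 cells, while the processed signal in the SkBr3 clone was 6.17, which was not well above background. With the lowest signal well above background on that array, 13.3, in its place, CTSZ was 161-fold lower in the SkBr3 clone than in its parent. This fold is approximate and not a strict minimum, since some probes brighter than 13.3 were not well above background there, such as that of LAPTM5 at 15.35. The measured log2 fold change was -8.44, and with normexp background correction and quantile normalization it was -4.67. Its log2 fold change in BT474 was 0.80. TPP1, the tripeptidyl peptidase deficient in a form of neuronal ceroid lipofuscinosis, had 0.431 and 0.176 in SkBr3 and 0.386 and 0.521 in BT474. The SkBr3 clone was 2.45-fold lower than its parent and lay below the other 3 samples, and the log2 fold change in BT474 was 0.43.

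The other proteases stayed within 2-fold. CTSL, an endopeptidase with broad substrates, had relative signals of 12.7 and 23.8 in SkBr3 and of 5.92 and 6.04 in BT474, and its log2 fold changes were 0.91 and 0.03. CTSB, an abundant cysteine protease of most cells, had -0.53 and -0.59, and its other 2 probes had values from -0.14 to -0.57 in SkBr3 and from -0.47 to -0.74 in BT474. CTSA, the carboxypeptidase that protects neuraminidase and beta-galactosidase, had -0.20 and 0.40. A dimmer probe of CTSA gave 0.04 and 0.38, so that its sign in SkBr3 differed between the probes. CTSF had -0.28 and -0.40. CTSL was the protease with the highest value in SkBr3 and CTSC in BT474.

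**Figure D3:**
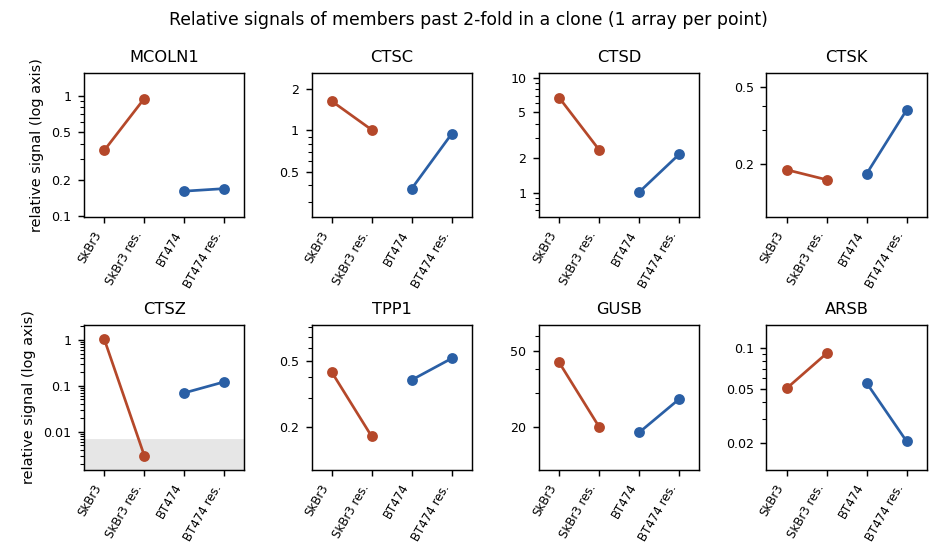
Relative signal (signal over the array's 75th percentile, logarithmic vertical axes that differ between panels) of the 8 lysosomal genes at least 2-fold changed in a clone, with 1 array per point and parental and resistant cells of a line joined. The grey band marks signals not well above background in the SkBr3 clone. The lines of CTSD run in opposite directions, from 6.74 to 2.36 in SkBr3 and from 1.01 to 2.16 in BT474.

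Of the 10 glycosidases and sulfatases, GUSB was lower in SkBr3 and ARSB was lower in BT474, and the other 8 stayed within 2-fold in both clones. Among all genes 14.4% were lower in SkBr3 and 5.40% in BT474. GUSB, the beta-glucuronidase that is often used as a reference gene, had relative signals of 43.6 and 20 in SkBr3 and of 18.7 and 28.0 in BT474. It was 2.18-fold lower in the SkBr3 clone and its log2 fold change in BT474 was 0.58. The probe of GUSB was spotted 10 times, and the SD between its spots was 0.026 to 0.066 on the log2 scale, which is the spread within an array. When arrays were scaled by their medians, the value in SkBr3 was -0.97, and with the percentile of probes well above background it was -0.87, both short of 2-fold. ARSB, the sulfatase of dermatan and chondroitin sulfate, had 0.0504 and 0.0915 in SkBr3 and 0.0554 and 0.0205 in BT474. It was 2.70-fold lower in the BT474 clone, with a log2 fold change of -1.43, and had 0.86 in SkBr3. Its processed signals were 34.4 to 189.8, and after normexp background correction the value in BT474 was -0.66. Both GUSB and ARSB thus had opposite signs in the 2 clones, and neither call held under all scalings and corrections.

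Of the other 8 glycosidases and sulfatases, 3 had positive values in SkBr3, and 2, GLA and MAN2B1, in BT474. HEXA, the alpha subunit of beta-hexosaminidase, had log2 fold changes of 0.84 in SkBr3 and -0.24 in BT474. NEU1, the lysosomal neuraminidase, had 0.59 and -0.55. GLA, the alpha-galactosidase deficient in Fabry disease, had 0.54 and 0.05, and GLB1, the beta-galactosidase stained in senescent cells, had -0.38 and -0.55. For GAA, the acid alpha-glucosidase of glycogen breakdown, the values were -0.06 and -0.34, for the mannosidase gene MAN2B1 -0.70 and 0.33, for the heparan sulfatase gene SGSH -0.51 and -0.34, and for ARSA, the sulfatase of sulfatide, -0.05 and -0.44. The median of the 10 genes was -0.06 in SkBr3 and -0.34 in BT474.

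None of the 5 genes of lipid hydrolases and lipid-handling proteins and none of the 3 V-ATPase genes on the list was higher or lower in either clone. Among all genes 28.6% were changed in SkBr3 and 14.6% in BT474. PSAP, the precursor of the saposins, had relative signals of 19.1 and 21.4 in SkBr3 and of 11 and 10.6 in BT474, and ASAH1, the acid ceramidase, had 2.77 and 2.71 in SkBr3 and 3.11 and 3.28 in BT474. NPC2, which hands cholesterol to NPC1, had log2 fold changes of 0.35 and 0.36, and LIPA, the acid lipase of cholesteryl esters, had 0.34 and 0.16. SMPD1, the acid sphingomyelinase, had -0.35 and -0.78. ATP6V0D1 of the membrane sector of the proton pump had 0.00 and 0.31, ATP6V1H of its cytosolic sector 0.39 and 0.20, and the accessory subunit ATP6AP1 0.29 and -0.45. The medians were 0.16 and 0.08 for the lipid genes and 0.29 and 0.20 for the V-ATPase genes in SkBr3 and BT474.

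Of the 32 genes, 11 were lower in parental BT474 than in parental SkBr3 cells and none was higher, which is 34.4% changed, while 19.1% of all genes were lower, 19.7% higher and 38.8% changed. The median log2 difference was -0.42, against -0.03 for all genes, and 10 of the 32 were positive, or 31.2% against 48.8%. Within 1.5-fold of each other were 13 genes, or 40.6% against 40.7% of all genes. The lower genes were 5 proteases (CTSZ, CTSD, CTSA, CTSC and CTSL), 4 glycosidases and sulfatases (GLB1, SGSH, GLA and GUSB) and 2 membrane proteins (NPC1 and MCOLN1). CTSZ was 14.9-fold lower, CTSD 6.66-fold, GLB1 5.90-fold and CTSA 4.75-fold. The relative signals of CTSA were 25.2 in SkBr3 and 5.30 in BT474, and those of GLB1 were 16.7 and 2.84, and the clones of each line stayed on their parent's side, at 21.9 and 7.01 for CTSA and at 12.8 and 1.94 for GLB1. None of the 9 proteases had a positive value. The highest values were 0.97 for SCARB2, 0.97 for HEXA, 0.96 for NEU1 and 0.89 for MAN2B1. With some other scalings or probes 1 to 3 genes were at least 2-fold higher in BT474. This comparison uses the parental arrays of both clone comparisons and is therefore not independent of them.

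**Figure D4:**
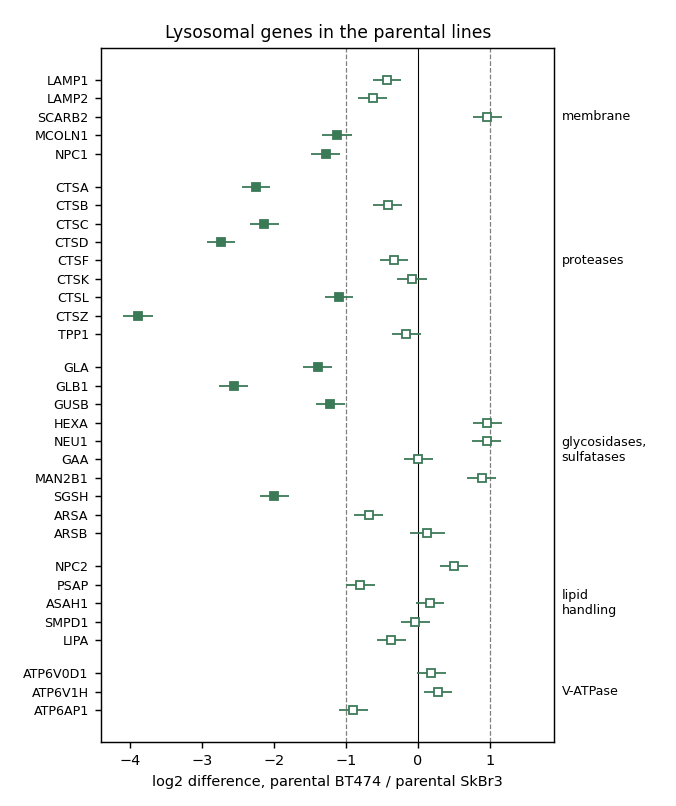
Log2 difference of the relative signal of each of the 32 lysosomal genes (vertical axis, grouped by role) between parental BT474 and parental SkBr3 cells. Bars are the software's error of the 2 signals, and filled squares lie past the dashed lines at 2-fold; 11 genes lie past it on the side of lower values in BT474 and none on the other.

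A further 149 genes of the lysosome and its surroundings were listed by function, of which 139 were named and 129 had a kept probe. In the SkBr3 clone 9 of the 129 were higher and 18 lower, with a median log2 fold change of -0.06, and in the BT474 clone 11 were higher and 3 lower, with a median of -0.05. These are 20.9% and 10.9% changed, against 28.6% and 14.6% of all genes, and among the 5 lists with at least 18 measured genes the share was 11.1% to 26.3% in SkBr3 and 4.17% to 13.8% in BT474. ATP6V1C2, a tissue-restricted subunit of the proton pump, was higher in both clones, with relative signals of 0.533 and 2.75 in SkBr3 and of 0.0918 and 0.509 in BT474, or 5.17-fold and 5.54-fold. MAP1LC3A, which encodes a protein of the autophagosome membrane, was lower in both, with 0.376 and 0.0224 in SkBr3 and 0.886 and 0.276 in BT474, or 16.8-fold and 3.21-fold. CST6, a secreted inhibitor of lysosomal cysteine proteases, was 6.68-fold higher in SkBr3, where its relative signals were 3.54 and 23.6. CST6 was not well above background in either BT474 sample, so that its value there was no measured level. It is still among the 11 genes counted as higher in BT474. The counts also hold IDUA and CST1 in SkBr3 and HPSE in BT474, singled out after their values were seen because 1 signal of each pair was not well above background.

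TFEB was 2.81-fold higher in the BT474 clone, with relative signals of 0.0997 in the parental cells and 0.280 in the clone, and was 1.05 and 1.19 in parental and resistant SkBr3 cells, a log2 fold change of 0.17. Parental SkBr3 cells had 10.6 times the TFEB signal of parental BT474 cells. TFE3 had log2 fold changes of 0.00 and 0.26, and MITF had -0.27 and -0.69. Of the 18 measured regulators of lysosomal genes and of mTORC1 at the lysosome, none was higher and 2 were lower in SkBr3, namely TSC1, which restrains mTORC1 (2.28-fold), and LAMTOR2, a part of the lysosomal anchor of mTORC1 (2.23-fold). In BT474 2 were higher, namely TFEB and RRAGB, a GTPase that recruits mTORC1 (2.07-fold), and none was lower. Among all genes, 14.1% were higher and 14.4% lower in SkBr3, and 9.20% were higher and 5.40% lower in BT474. RRAGB was short of 2-fold with the arrays scaled by their medians (0.85) and with quantile normalization (0.93).

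In SkBr3 14.1% of all genes were higher and 14.4% lower, and in BT474 9.20% were higher and 5.40% lower. Among 19 other V-ATPase genes, 2 were higher and 3 lower in SkBr3 and 2 were higher and none lower in BT474. Besides ATP6V1C2 these included ATP6V1E1 (2.56-fold higher), ATP6V1G2 (10.2-fold lower) and ATP6AP2 (2.44-fold lower) in SkBr3 and ATP6V1B1 (6.18-fold higher) in BT474. Among 29 other hydrolases and activators, 2 were higher and 5 lower in SkBr3 and 3 were higher and 1 lower in BT474. GALC, the galactosylceramidase, was 9.43-fold lower in SkBr3, with relative signals of 0.208 and 0.0221, and had 1.69 and 1.88 in BT474. SIAE, a sialic acid esterase, was 3.15-fold lower in SkBr3 and 3.14-fold higher in BT474. CTSS, a cathepsin of antigen-presenting cells, was 3.40-fold higher in SkBr3, and CTSV, a close relative of CTSL, was 2.53-fold higher and AGA, an enzyme of glycoprotein breakdown, 2.36-fold lower in BT474.

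Among 21 other membrane proteins, 2 were higher and 3 lower in SkBr3 and 1 was higher and 1 lower in BT474. LAMP3, a family member of dendritic cells that interferons induce, was 31.1-fold higher in SkBr3, from a relative signal of 0.0277 to 0.861, and 5.98-fold lower in BT474, from 1.35 to 0.225. The sialic acid exporter gene SLC17A5 was 3.37-fold higher and the transporter genes ABCA2 and ABCB9 were 2.85-fold and 2.64-fold lower in SkBr3, and the two-pore channel gene TPCN1 was 2.48-fold higher in BT474. Of 24 genes of autophagy and fusion 1 was higher and 3 lower in SkBr3 and 1 was lower in BT474. SQSTM1, the autophagy receptor p62, was 2.21-fold higher and WIPI1, a protein of the early autophagosome, 3.01-fold lower in SkBr3. Of 6 inhibitors of cathepsins with a kept probe 2 were higher and 1 lower in SkBr3 and 3 were higher in BT474. Of all genes 14.1% were higher and 14.4% lower in SkBr3, and 9.20% were higher and 5.40% lower in BT474. The higher ones included the cystatin genes CSTA (2.17-fold, SkBr3) and CST1 and CST2 (4.75-fold and 3.34-fold, BT474). The BT474 count also holds CST6, which was not well above background in either BT474 sample. The lower gene in SkBr3 was CST1, whose signal in the clone was not well above background.

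**Figure D5:**
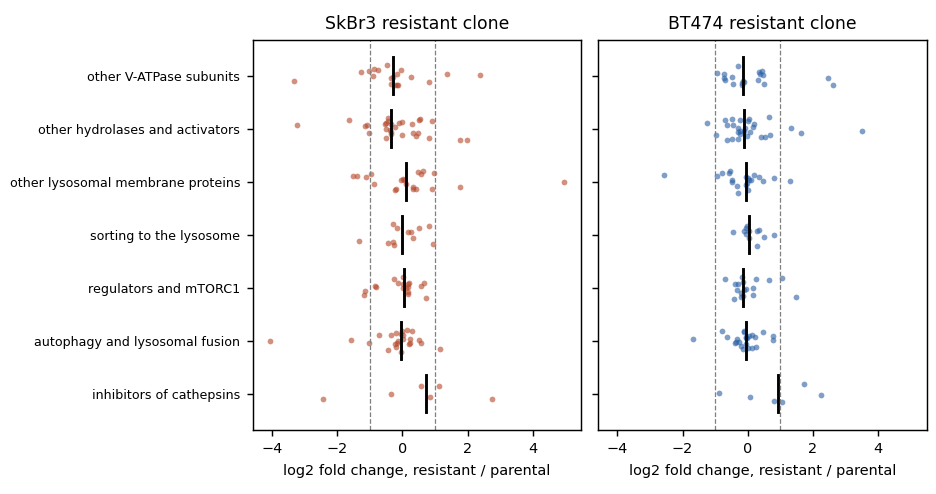
Log2 fold change of 129 further genes of the lysosome and its surroundings in the SkBr3 clone (left) and the BT474 clone (right) against the parental cells, with 1 point per gene and lists in rows. Black bars are medians and dashed lines mark 2-fold. The medians of the lists with at least 18 genes run from -0.358 to 0.096 in SkBr3 and from -0.145 to -0.036 in BT474. Single genes such as LAMP3 (4.96 in SkBr3, -2.58 in BT474) lie far out.

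Across both lines together, limma with cell line as a block had 1 residual degree of freedom and left 0 of 25927 probes under 0.05 after Benjamini-Hochberg adjustment, and 900 probes, or 3.47%, had an unadjusted p under 0.05. No probe representing a lysosomal gene was among these 900, and the lowest adjusted p of a lysosomal gene in limma was 1.0. Of 22 comparisons between 2 probes of the same lysosomal gene, the log2 fold changes differed by a median of 0.23 and by at most 0.85, and 4 had opposite signs.

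The labelled breast cancer origin was checked against its markers. Of 8 markers of luminal breast epithelium and HER2, 7 were well above background in both SkBr3 samples, with CDH1 as the exception, and 8 in both BT474 samples, and their summed relative signals were 835 and 508 in SkBr3 and 773 and 517 in BT474. ERBB2, the HER2 gene, went from 214 to 57.2 in SkBr3, or 3.74-fold lower, and from 221 to 141 in BT474. GRB7 was 2.29-fold lower in the SkBr3 clone. Of the 8 log2 fold changes, 1 was positive in SkBr3, that of KRT7, and 0 in BT474. Of all 12159 genes, 5694 were positive in SkBr3 and 5237 in BT474. The negative value of CDH1 in SkBr3 was no measured fall, since neither of its SkBr3 signals was well above background. Of 9 leukocyte and macrophage markers 5 to 7 were well above background, PTPRC in no sample, and their sums were 11.4 and 45.7 in SkBr3 and 1.46 and 1.18 in BT474. CSF1R and LCP1 made up most of the SkBr3 sums, with 5.30 and 5.62 in parental cells and 20.4 and 24.7 in the clone. The part of these markers in the SkBr3 values, including CTSS, was not tested. Of 8 fibroblast markers THY1 was well above background in all 4 samples and made up most of the sums, which were 1.03 to 1.51. COL3A1, PDGFRB and FAP were well above background in the SkBr3 clone only. With the parental array's lowest signal well above background standing in, COL3A1 was 11.7-fold, PDGFRB 2.18-fold and FAP 1.19-fold higher in the clone. These folds are approximate, and the part of these markers in the SkBr3 values was not tested. Because RNA came from whole cultures, fewer cells with a transcript and less of it per cell cannot be told apart.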

How the data were processed

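Total RNA of parental SkBr3 and BT474 cells and of 1 resistant clone of each was hybridized to 4 single-color arrays, 1 per group. The authors deposited for each spot the background-subtracted intensity, called the processed signal, from Feature Extraction 10.1.1.1 (Cy3, per the file headers, whereas the methods describe an earlier version with LOWESS normalization), its software error and flags for signals well above background and outliers, which are yes or no values. A deposited table of log2 values per probe gave, for the lysosomal genes, the same differences between arrays to within 0.000729. Its centring per probe leaves levels unknown, and it was used as an alternative.

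Log2 processed signals were averaged over repeated spots and reduced by the array's 75th percentile, taken over 41000 non-control probes. Probes with a signal of at least 100 on at least 1 array were kept (25927). Well above background means so marked on at least 50% of a probe's spots. Probes were named by RefSeq accession through the RefSeq annotation of GRCh38.p14 (23680 of 41000), and for each gene the kept probe of highest mean signal was used. The probe design predates that build, so no gene coordinates are given, and promoter windows are those of RefSeq. For a fold with 1 signal near background, the dimmest marked signal of that array stands in, which gives an approximate limit and not a strict one. The array number limits the precision, and no spot was saturated. With 1 array per group, changes of at least 2-fold were counted without a test. Both lines were tested together with limma 3.58.1 (R 4.3.3), cell line as a block and Benjamini-Hochberg adjustment, which measures only the spread between these samples. Other calculations used Python 3.11.15, numpy 2.4.6 and pandas 2.3.3. The 2-fold rule and the limma fit were run on simulated arrays. Only the recovery and the fold changes of the 2-fold rule were checked there, and the other steps were not.

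The lysosomal genes, the further lists and the tests were chosen with earlier results of these data known. Every lysosomal gene is described. Of the further lists, TFEB, TFE3 and MITF are named, then genes 2-fold changed the same way in both clones, then the 2 largest rises and 2 largest falls of each list and clone among genes well above background on both arrays. An item that these rules cover is not reported here. The alternatives were the 75th percentile over probes well above background, the median, quantile normalization, normexp (offset 50, on the deposited median pixel intensities of spot and background) with quantile normalization, the deposited table, 16 added to the signal, no filter or all 4 arrays well above background, outlier spots left out, the mean or the dimmest probe of a gene, thresholds of 1.5-fold and 3-fold, and limma with the slide, or nothing, in place of the cell line block.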

Additional observations from a re-analysis of the deposited data

Results flagged for a closer look

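For 7 lysosomal genes a clone was past 2-fold while the other clone's value had the opposite sign, which is 21.9% against 18.0% of all genes. With 1 array per group, the difference between the clones was not tested for any of them. The log2 fold changes in the SkBr3 and the BT474 clone were -1.51 and 1.09 for CTSD, -0.70 and 1.34 for CTSC, -0.18 and 1.1 for CTSK, -8.44 and 0.80 for CTSZ and -1.29 and 0.43 for TPP1, all of which are proteases. They were -1.12 and 0.58 for GUSB and 0.86 and -1.43 for ARSB. The SkBr3 value of CTSK is smaller than its software error of 0.21, so its sign is not settled. CTSD alone was past 2-fold in both directions. The SkBr3 values come from arrays on different slides and the BT474 values from arrays on the same slide.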

How the results depend on the processing

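No paired analysis was possible because the groups share a single replicate number, beyond the pairing of each clone with its own parent that the cell line block in limma makes. For SkBr3 the slide cannot be separated from resistance, and spots close to background, such as those of ARSB and CTSZ, limit those values. The median log2 fold change of all genes was -0.06 in SkBr3 and -0.09 in BT474 with the 75th percentile of all probes, 0.19 and 0.20 with that percentile over probes well above background, 0.10 and -0.29 with the median and -0.02 and -0.05 with quantile normalization. None of the 9 values past 2-fold changed sign under 9 alternatives, and 5 stayed past 2-fold in all of them: CTSC in BT474 (1.13 to 1.92), CTSD (-1.64 to -1.26), CTSZ (-8.44 to -4.67), MCOLN1 (1.24 to 1.68) and TPP1 (-1.29 to -1.04) in SkBr3. Some alternatives could not differ. The deposited table gave the same differences to within 0.000729. The mean and the dimmest probe repeat the value of a gene with 1 probe, as for all of these genes but CTSC. The lowest BT474 values were 0.89 for CTSD and 0.88 for CTSK, GUSB reached -0.87 in SkBr3 and ARSB -0.66 in BT474. Of 55 values under 2-fold, 4 reached it in an alternative, those of CTSL (1.17), HEXA (1.1) and ARSB (1.11) in SkBr3 and CTSZ (1.08) in BT474.

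The counts that follow have no share of all genes at the same setting beside them. The scalings moved all genes, so a changed count need not be particular to lysosomal genes. With the percentile over probes well above background, 4 lysosomal genes were higher in SkBr3 in place of 1. Between the parental lines, 3 were higher in BT474 than in SkBr3 in place of 0. The medians were 0.13 in SkBr3 and 0.32 in BT474, where those of all genes were 0.19 and 0.20. With the median as the scale, 4 were higher in SkBr3 and 1 in BT474 in place of 3, and the BT474 median was -0.17. Of the further genes 14 in place of 9 were then higher in SkBr3 and 8 in place of 3 lower in BT474. Their BT474 median was -0.26, where that of all genes was -0.29. Quantile normalization gave 5 further genes lower in BT474 and 2 lysosomal genes higher between the parental lines. Normexp with quantile normalization also gave 2 there, and 0 in place of 1 lower in the BT474 clone. The mean and the dimmest probe of a gene each gave 1 higher between the parental lines. At 3-fold, 0 were higher and 1 lower in SkBr3, 0 were higher and 0 lower in BT474, and 6 in place of 11 were lower between the parental lines. At 1.5-fold, 5 were higher and 7 in place of 4 lower in SkBr3, 4 were lower in BT474 and 4 were higher between the parental lines. In limma with nothing in place of the cell line block, or with quantile normalization, no lysosomal gene had an adjusted or unadjusted p under 0.05. With the slide as the block, the array of the SkBr3 clone was alone on its slide. That fit therefore could not test resistance in SkBr3, and nothing is concluded from it.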

Other observations

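The genes next to CTSZ in the RefSeq gene order were looked up after its value was seen. In the SkBr3 clone the log2 fold changes of the neighbours with a kept probe were -1.28 for NPEPL1, -0.92 for GNAS and -1.04 for NELFCD on one side, and -0.66 for ATP5F1E, -0.21 for PRELID3B and -3.01 for SYCP2 on the other. In the BT474 clone they were -0.17, -0.46, -0.44, -0.16, -0.62 and 0.48 in the same order. All 6 were negative in SkBr3, where 5694 of all 12159 genes were positive. In BT474, where the value of CTSZ was 0.80, all but SYCP2 were negative. All 6 were well above background on all 4 arrays. They are the nearest genes with a kept probe, and genes without one may lie between them. The share of positive genes is no test for 6 genes picked for their place beside CTSZ, and a change of the region was not tested.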
